A study of Mus musculus with 8 samples.

Results

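Ribosome occupancy relative to mRNA was described in control mouse embryonic fibroblasts (MEF), connective tissue cells taken from mouse embryos. All genes of the table were used, in the 4 empty-vector (EV) libraries of the 8 libraries of the series: 2 of input RNA (EV input 1 and 2) and 2 of ribosome-protected fragments (EV RPF 1 and 2). The cells were a wild-type MEF line that expresses the SV40 T antigen, a viral oncoprotein that lets cells divide without limit, and they carried an empty vector under puromycin and G418 selection, without antibiotic during expansion. Cycloheximide was added before lysis in all libraries. The other 4 libraries came from the same line with METTL1 and WDR4 overexpressed and were not used here, except that a gene is listed only where each of the 8 libraries holds at least 1 read. The labels speak of stable clones and do not say whether both EV libraries of a kind came from separate cultures, so the spread behind the p-values may be technical rather than that of independent cultures.

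A ribosome that is halted on an mRNA shields a short fragment of it from nuclease, and sequencing these footprints beside the total RNA of the same cells shows how densely each mRNA is read. The ratio of footprints to input RNA is called translational efficiency. It is known to differ between mRNAs with the length of the coding part, with reading frames that lie ahead of the main one, and with sequence elements in both untranslated parts.

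The table gives normalised reads per gene, which the authors scaled by library size factors. The EV input libraries held 365962 and 371520 reads in the listed genes, and the EV RPF libraries 707344 and 618526. A single read counted as 1.28 and 1.27 in the input libraries and as 0.659 and 0.753 in the RPF libraries, and a gene at the middle of the table had 18 to 32 reads. Of 17 fibroblast markers 14 were listed, and Thy1, Lum and Fap were not. Their summed level was 5292 to 5493 normalised reads in the input libraries and 10099 to 10146 in the RPF libraries. Of 31 markers of epithelium, endothelium, leukocytes, muscle, adipocytes and neural cells 7 were listed, with a summed level of 93.7 to 99.3 in input and 99.4 to 112 in RPF, and the highest single value, 65.0, was that of a neural marker.

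The difference between log2(RPF + 1) and log2(input + 1), each averaged over 2 libraries, ranked the mRNAs by their footprints per input read. Because each library was scaled to a common centre, the difference is relative, and its median over the 9304 genes with a mean of at least 1 was 0.02. The middle part of the genes, between the quartiles, lay between -0.63 and 0.56. Between the 5th and the 95th percentile, at -1.84 and 1.21, footprints per input read differed 8.32-fold. The range was wider below than above the median, from -10.80 to 2.84. The differences taken from the replicate pairs 1 and 2 had a Pearson r of 0.79 and a Spearman rho of 0.72 across genes, which share the libraries' depth. RPF was higher than input for 1768 genes (19% of those tested) and lower for 1833 genes (19.7%) at an adjusted p under 0.05 (limma, two-sided). With a difference of at least 1 in size as well, 755 genes (8.11%) were higher and 1324 genes (14.2%) lower. Among the 7630 genes whose coding part is at least 95% unique, meaning that its 28-base stretches occur in no other annotated gene, 1368 (17.9%) were higher and 1454 (19.1%) lower. Both values of one kind of library lay beyond both of the other for 6433 genes, 69.1% of those tested. Far fewer genes were called with either EV RPF library left out, where the spread is that of the 2 input libraries alone. A call lost there does not by itself mean that the difference moved. Of 181 genes named by rule 0 changed sign in these fits. With DESeq2 on the recovered reads 898 genes were called higher and 1137 lower.

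**Figure D1:**
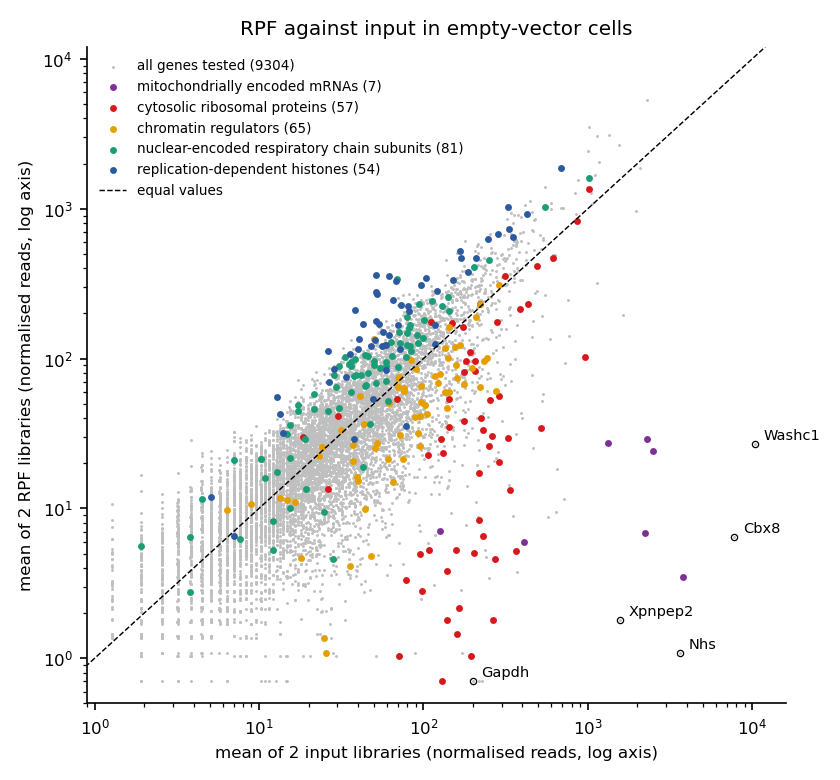
Mean RPF against mean input value of each of the 9304 genes tested, in normalised reads on log axes, with 5 gene lists coloured and the dashed line marking equal values. Histone genes lie above the line, ribosomal protein genes spread far below it, and the mitochondrially encoded mRNAs, Nhs, Cbx8, Xpnpep2 and Washc1 have high input with few RPF reads.

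The level of an mRNA and its relative occupancy were then compared. When genes were put in 10 bins by EV input 1 and the difference was taken from RPF 2 and input 2, the bin medians ran from 0.18 in the lowest bin to -0.07 in bins 8 and 9 and 0.00 in the highest. The highest bin, from 101 to 8802 normalised reads, differed in its lower tail: its 10th percentile was -2.51, against -1.55 in the bin below it. With bins from EV input 2 and differences from pair 1, the same 2 values were -2.56 and -1.53. More genes were called at higher input levels. In the lowest bin by EV input 1, 10.7% were called higher and 0.75% lower, and in the highest 35.9% and 40.3%. Binned by the RPF level, medians ran from -0.76 in the lowest bin to 0.62 in the highest, but there the binning measure is part of the difference.

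Short coding parts carried more footprints per input read than long ones. Over 9292 coding genes of the nuclear genome, the median difference ran from 0.52 in the bin of shortest coding parts (78 to 774 bases) to -0.53 in the bin of longest (2637 to 26400 bases). In the shortest bin 34.5% of genes were called higher and 8.82% lower, and in the longest 6.72% were higher and 42.9% lower. The Spearman rho of coding length with the difference was -0.40 across genes, as a description. It was -0.45 over the 7629 nuclear genes with unique coding parts. Other features showed weaker relations: rho was -0.21 for the length of the leader (the part ahead of the main start codon), -0.15 for the length of the 3' untranslated part and 0.13 for the share of G and C at the last position of the codons.

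The number of ATG triplets in the leader went with a lower difference. The median was 0.26 for 4425 genes with no upstream ATG, -0.11 for 2058 genes with 1, -0.25 for 965 genes with 2, -0.36 for 641 genes with 3 and -0.48 for 1203 genes with 4 or more. Of the genes with no upstream ATG 10.9% were called lower, against 32.5% of those with 4 or more. Within each of the 5 bins of coding length, genes with an upstream ATG had the lower median, by 0.31 in the bin of the shortest coding parts and by 0.57 in the bin of the longest. Within bins of leader length the gap ran from 0.16 in the shortest leaders (0 to 84 bases) to 0.62 in the longest (375 to 8962 bases). Genes without an upstream ATG stayed between 0.20 and 0.31 in all 5 bins of leader length. The bases around the main start codon had smaller gaps. Genes with A or G 3 bases ahead of the start had medians of 0.07 and 0.05, and those with C or T -0.21 and -0.19.

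**Figure D2:**
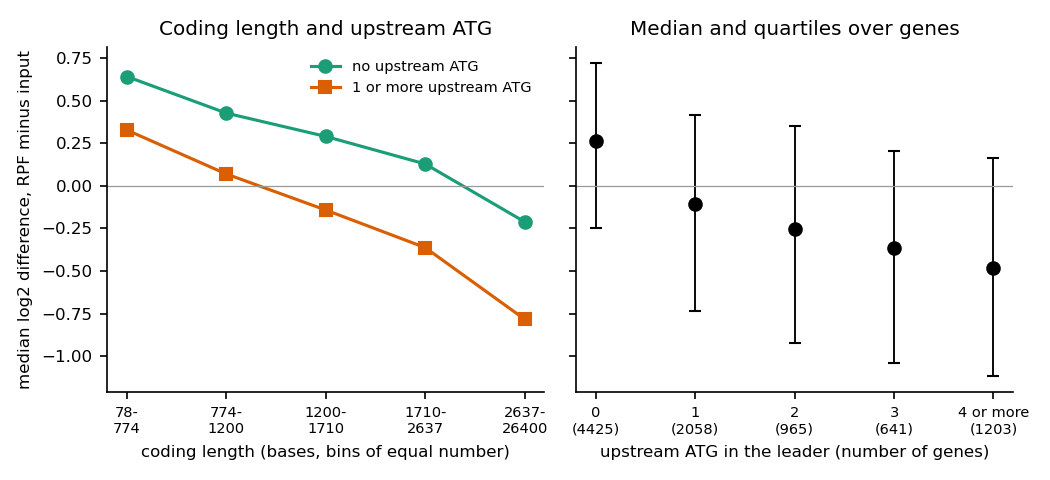
Left, median log2 difference (RPF minus input) in 5 bins of coding length for genes without and with an ATG in the leader; right, median and quartiles by the number of upstream ATG. Both lines fall with coding length, and at each length the genes with an upstream ATG lie lower.

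Upstream reading frames are known to set the translation of some genes. Frames of at most 30 bases that start and end in the leader are shown for 7 of them, with the start and stop codons in capitals, since a ribosome that reads them ends before the main start. They were read from the longest coding transcript of GENCODE mouse release 21 (build mm10). All 7 genes shown were called lower, while Mdm2 and Sat1 also hold 1 such frame each and did not pass the threshold. In Atf4, Atf5 and Ppp1r15a 1 further upstream frame runs into the coding part and is not shown. The part of these frames in the values was not tested.
Atf4: ATGgcgtatTAG
Atf5: ATGgctctgTAG
Ppp1r15a, first: ATGgcttatttggtcTGA
Ppp1r15a, second: ATGTAG
Ppp1r15b, first: ATGacgTGA
Ppp1r15b, second: ATGgtggagcgatctcacacggccTAG
Odc1: ATGacgacgtgctcggcgtataagTAG
Ibtk, first: ATGgctattTGA
Ibtk, second: ATGaagaacttgtatttgataTGA
Azin1, first: ATGatagggggttccatctccTAA
Azin1, second: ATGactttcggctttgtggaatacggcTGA
The Atf4 frame lies at chr15:80255582-80255593 (plus strand), 184 bases ahead of the main start codon, and holds 3 codons before its stop. The Atf5 frame lies at chr7:44816526-44816537 (minus strand), 240 bases ahead, and also holds 3 codons. Ppp1r15a has 7 upstream ATG, and its second short frame (chr7:45525568-45525573, minus strand) is a start codon followed at once by a stop. The Odc1 frame of 27 bases lies at chr12:17544921-17544947 (plus strand). The second Azin1 frame (chr15:38501507-38501536, minus strand) ends 1 base before the main start codon.

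In these libraries most such genes had fewer footprints than the median mRNA. Atf4, a transcription factor of the amino acid and stress response, had input values of 118 and 140 and RPF values of 34.3 and 38.4. Both RPF values lay far below both input values, and the difference was -1.80 (SE 0.16, adjusted p = 2.51e-06). Atf5, a related factor, had 20.5 and 22.9 in input and 7.91 and 9.79 in RPF, a difference of -1.21 (SE 0.33, adjusted p = 0.0117). Ppp1r15a, a phosphatase subunit that reverses the stress signal on initiation factor 2, had 15.4 and 10.2 in input. Its RPF values of 1.98 and 2.26 come from 3 reads in each library. Its partner in the same task, Ppp1r15b, had 70.6 and 44.6 in input and 31.0 and 27.9 in RPF. The ranges of both phosphatase subunits did not overlap, and the differences were -2.12 (SE 0.46, adjusted p = 0.00261) and -0.91 (SE 0.24, adjusted p = 0.00819).

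Eif4g2, an initiation factor whose message starts at a codon other than ATG, was the most strongly supported member, with 1158 and 1111 in input against 339 and 303 in RPF (difference -1.82, SE 0.07, adjusted p = 1.09e-09). Both RPF values lay well below both input values. Ibtk, an inhibitor of a tyrosine kinase, differed by -1.65 (SE 0.27), Ifrd1, a transcriptional regulator, by -0.94 (SE 0.14) and Eif5, an initiation factor, by -0.74 (SE 0.14). Odc1, the first enzyme of polyamine synthesis, had 71.9 and 77.7 in input and 16.5 and 12.05 in RPF, but only 15.6% of its coding stretches are unique and its value is uncertain. Azin1, a homologue that binds the same antizyme, had 88.6 and 106 in input and 59.3 and 51.2 in RPF, a difference of -0.80 (SE 0.16, adjusted p = 0.00167). With the input scaled by the coding share of the transcript, the difference of Azin1 turned to 0.03.

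Over the list of 27 genes with known regulatory upstream frames, 15 were lower and 3 higher, and the median was -0.85 against 0.02 over all genes. An upstream ATG was annotated for 24 of the 27. The 3 higher members were Uchl1, a neuronal ubiquitin hydrolase, at 1.90 (SE 0.46), Cdkn1b, an inhibitor of cell cycle kinases, at 1.47 (SE 0.25) and Slc7a1, a transporter of basic amino acids, at 0.65 (SE 0.23). Cdkn1b had 15.4 and 15.3 in input and 42.2 and 46.7 in RPF, so that its mean RPF value was 2.90 times the input. Ddit3, Klf4, Sat1, Mdm2, Rnaseh1, Tgfb3, Nr3c1, Cebpb and Slc7a11 did not pass the threshold and ranged from -0.95 to 0.43. With either RPF library left out the list held 4 lower and 0 higher genes, with Atf4, Eif4g2 and Odc1 among the lower ones. The calls of Ppp1r15b and Slc7a1 were also lost without EV input 1 and without EV input 2, respectively. 

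**Figure D3:**
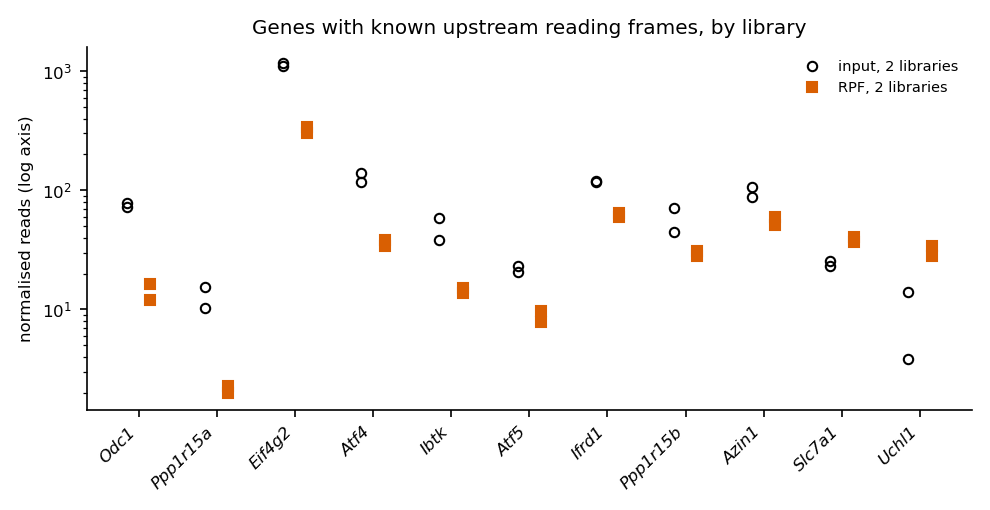
Normalised reads (log axis) in each of the 2 input and 2 RPF libraries, for 11 called genes of the 27 with known upstream reading frames. The 9 members that did not pass the threshold are not drawn, nor are Cdkn1b and the other lower members. In the 9 genes on the left both RPF values lie below both input values, and in Slc7a1 and Uchl1 above them.

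Replication-dependent histone mRNAs, which supply the proteins that package new DNA and end in a stem-loop in place of a poly(A) tail, had the highest median of all lists. Of 54 members 48 were higher and 1 was lower, and the median was 1.38. Their share of all reads was 1.25% (95% Wilson interval 1.22 to 1.29%) and 1.23% (1.20 to 1.27%) in the input libraries and 3.30% (3.26 to 3.34%) and 3.24% (3.19 to 3.28%) in the RPF libraries. These intervals cover counting error only. Hist1h2bj, which encodes an H2B (chromosome 13, 22043214 to 22043676), had 52.6 and 50.9 in input and 406 and 318 in RPF, a difference of 2.77 (SE 0.13, adjusted p = 5.44e-09). Every H2A and H3 member was called higher, 13 of 13 and 10 of 10, with medians of 1.46 and 1.53. Of 14 H2B members 12 were higher (median 1.66). H4 members were lower on the scale, with 8 of 12 higher and 1 lower and a median of 0.95.

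Most histone genes share coding sequence: the median member had 15.2% unique coding stretches, so single values are uncertain. The members with at least 95% were Hist1h1a and Hist4h4. Hist1h1a, an H1 linker histone, had 322 and 341 in input and 727 and 733 in RPF, a difference of 1.14 (SE 0.07, adjusted p = 7.3e-08). Hist4h4 had 196 and 175 in input and 371 and 389 in RPF, a difference of 1.03 (SE 0.09, adjusted p = 2.74e-06). The mean RPF values were 2.199 and 2.05 times the input, and the kinds did not overlap. Hist1h4j was the lower member, with 69.3 and 86.6 in input and 38.2 and 32.4 in RPF (difference -1.12, SE 0.19), and its call was lost with either RPF library left out. The list held 26 higher genes without EV RPF 1 and 28 without EV RPF 2.

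The stem-loop is shown for 4 members to give its form, with the paired arms in capitals and the loop in lower case. It was searched on the mRNA strand as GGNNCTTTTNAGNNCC in the 100 bases after the stop codon.
Hist1h2bj: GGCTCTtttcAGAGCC
Hist1h2bk: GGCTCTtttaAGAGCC
Hist1h4d: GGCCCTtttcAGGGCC
Hist1h4j: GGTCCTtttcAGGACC
It lies at chr13:22043638-22043653 (plus strand) in Hist1h2bj, 27 bases after the stop codon, and at chr13:22036300-22036315 (plus strand) in Hist1h2bk. In Hist1h4d it lies at chr13:23581950-23581965 and in Hist1h4j at chr13:21735437-21735452, both on the plus strand. The motif was found in 34 of 54 histone genes (63.0%) and, outside the list, in 1 of 9235 other coding genes (0.011%), H2afx, which encodes a histone variant. Only 22 histone transcripts are annotated for the whole window. The median difference was 1.37 with the motif and 1.5 without it in that window.

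Among the other lists, those of small mitochondrial and proteasomal subunits lay high. Nuclear-encoded subunits and assembly factors of the respiratory chain, which makes most of the ATP, had a median of 0.83, with 59 of 81 higher and 3 lower. Cox8a, a subunit of complex IV with a coding part of 210 bases (chromosome 19, 7215153 to 7217616), had 74.4 and 63.7 in input and 362 and 321 in RPF. No RPF value came near the input values, and the difference was 2.29 (SE 0.12, adjusted p = 1.36e-08). In complex I 29 of 44 were higher and 0 lower, in complex II 4 of 4, in complex III 6 of 9, in complex IV 8 of 10 and in ATP synthase 12 of 14. Atp5a1 and Atp5b, the alpha and the catalytic beta subunit of ATP synthase, differed by 0.91 (SE 0.07) and 0.65 (SE 0.06), and that of Atp5b turned to -0.09 with the input scaled by the coding share. The lower members were Atp5g1, Uqcrb and Atp5h, at -2.38, -1.25 and -1.16, with 0%, 8.09% and 18.5% unique coding stretches, and each lost its call with either RPF library left out. The list held 9 higher genes without EV RPF 1 and 8 without EV RPF 2.

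Mitochondrial ribosomal proteins had a median of 0.52, with 28 of 76 (36.8%) higher and 2 lower, and most calls were lost with either RPF library left out. Their median coding length was 585 bases. All genes with coding parts of 78 to 774 bases had the same median of 0.52, with 34.5% higher, so the list lay where genes of its coding length lie. Mrps6, of the small subunit, had 33.4 and 30.6 in input and 102 and 98.6 in RPF, a difference of 1.62 (SE 0.17, adjusted p = 8e-06). Proteasome subunits, which form the particle that degrades marked proteins, had a median of 0.69, with 24 of 35 higher and 2 lower, and with the input scaled by the coding share the median was 0.28. Psmb2 of the core had 94.99 and 98.1 in input and 228 and 217 in RPF, a difference of 1.20 (SE 0.11, adjusted p = 3.1e-06). Both sets of values were well apart. The lowest member, Psma3, at -2.71, has 7.56% unique coding stretches. The proteasome list held 3 higher genes without EV RPF 1 and 2 without EV RPF 2. DNA replication genes had 28 of 48 higher and 3 lower (median 0.53, and 0.19 under that scaling), and 2 were higher with either RPF library left out. Rrm2, a subunit of the enzyme that makes deoxynucleotides, differed by 1.16 (SE 0.12), a call lost without EV RPF 2.

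Genes of the fibroblast's matrix and skeleton also lay above the median. Col1a1, a chain of type I collagen, had 1158 and 1187 in input and 2056 and 2071 in RPF, a difference of 0.82 (SE 0.05, adjusted p = 3.91e-08). Col1a2, the other chain, had 1106 and 1107 against 1702 and 1677 and differed by 0.61 (SE 0.05), which turned to -0.02 with the input scaled by the coding share. Replicates lay close together, and the mean RPF value was 1.76 times the input for Col1a1 and 1.53 times for Col1a2. Of 19 collagen chains 10 were higher and 0 lower, and their median of 0.45 turned to -0.12 under that scaling. Secreted glycoproteins and proteases had a median of 0.60, or 0.26 under it, with 26 of 42 higher and 1 lower. Spp1, the secreted adhesion protein osteopontin, had 413 and 481 in input and 1102 and 1144 in RPF (difference 1.33, SE 0.08). Sparc, a matrix protein that binds collagen, differed by 1.23 (SE 0.08), Ptn, a growth factor, by 1.67 (SE 0.13) and Fn1, fibronectin, by 0.58 (SE 0.06). Fn1 turned to -0.27 under the coding share scaling. Without EV RPF 1 and without EV RPF 2, 5 and 7 glycoproteins and 3 and 3 collagens were called higher.

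Actb, the main non-muscle actin, had the most RPF reads of all genes, not scaled by length, with 2282 and 2326 in input and 5509 and 5149 in RPF (difference 1.21, SE 0.04, adjusted p = 2.73e-10). Vim, the intermediate filament of mesenchymal cells, had 1289 and 1390 in input and 3137 and 3057 in RPF, also a difference of 1.21 (SE 0.05). For both the mean RPF value was 2.31 times the input. Of 51 genes of actin, myosin and their regulators 32 were higher and 8 lower (median 0.63), and 12 and 11 were higher without EV RPF 1 and without EV RPF 2. Of the 14 fibroblast markers 10 were higher and 0 lower, and Pdgfra, Twist1, Fbn1 and Postn did not pass the threshold. Without EV RPF 1 and without EV RPF 2, 6 and 7 markers were higher, and the median of 0.64 was 0.30 with the input scaled by the coding share. In bulk libraries fewer cells of a type and less RNA per cell cannot be told apart.

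Genes whose mRNAs are induced early and decay quickly formed another list, and not all of its members are transcription factors. Of 31 members 17 (54.8%) were higher and 5 (16.1%) lower, against 19% and 19.7% over all genes, with a median of 0.77. Id3, which blocks helix-loop-helix factors, had 77.0 and 72.6 in input and 252 and 282 in RPF, a difference of 1.82 (SE 0.12, adjusted p = 8.6e-08). Myc, a growth factor-induced regulator, had 47.5 and 42.0 in input and 77.8 and 76.0 in RPF (difference 0.77, SE 0.17), and Jun, of the AP-1 factors, 41.1 and 33.1 against 65.9 and 91.1 (1.05, SE 0.20). Zfp36, a protein that speeds mRNA decay, went the other way, with 27.0 and 58.6 in input and 5.27 and 6.78 in RPF, a difference of -2.55 (SE 0.38, adjusted p = 1.79e-04). The other lower members were Srf, Btg1, Jund and Ccn1, from -1.18 to -0.73, and Jund shares over 20% of its exon bases with another gene, so its value is uncertain. With either RPF library left out Id3 was the 1 member called. Ccnd1, the cyclin that starts the cell cycle, had 96.3 and 85.3 in input and 281 and 247 in RPF (difference 1.53, SE 0.12), and is uncertain for the same reason.

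Regulators of chromatin, most of them with long coding parts, lay low. Of 65 chromatin regulators 40 were lower and 1 higher, with a median of -0.80 and a median coding length of 3930 bases. Kmt2d, a methyltransferase for histone H3 (chromosome 15, 98831669 to 98871204), had 291 and 264 in input and 67.9 and 54.2 in RPF, a difference of -2.17 (SE 0.14, adjusted p = 5.99e-08). Its coding part is 16767 bases long and over 95% unique. Tet2 and Tet3, which oxidise methylated cytosine, had 28.2 and 21.7, and 33.4 and 38.2, in input. In RPF they had 1.98 and 0.753, and 5.27 and 3.01, so that Tet2 rests on 4 RPF reads in all. Their differences were -3.49 (SE 0.45) and -2.87 (SE 0.37). Kdm6b, a histone demethylase, differed by -3.09 (SE 0.33).

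Of 13 methyltransferase genes of the Kmt, Setd, Nsd and Ezh families 11 were lower, of 12 Kdm and Tet genes 8, and of 9 Smarc genes, the subunits of a nucleosome remodeller, 2. These subgroups were formed after the values were seen. The higher member was Smarcb1, a Smarc gene with a coding part of 1158 bases, at 51.3 and 48.4 in input and 130 and 142 in RPF (difference 1.43, SE 0.14, adjusted p = 6.16e-06). Without EV RPF 1 and without EV RPF 2 the chromatin list held 15 and 14 lower genes, Kmt2d among them. Of 201 genes named Zfp, mostly DNA-binding zinc finger proteins, 56 were lower and 3 higher (median -0.62), and 5 and 6 were lower without EV RPF 1 and without EV RPF 2. The Zfp list had 27.9% lower and a median coding length of 1785 bases. Over all coding genes of 1710 to 2637 bases the median was -0.13, with 21.1% lower. Zfp106 had 306 and 306 in input and 79.8 and 72.3 in RPF, a difference of -1.99 (SE 0.11). It is uncertain because 26.1% of its exon bases overlap another gene. Of 39 ubiquitin-specific proteases 17 were lower and 3 higher (median -0.48), with 3 and 4 lower without EV RPF 1 and without EV RPF 2. Usp34, with a coding part of 10749 bases, had 344 and 341 in input and 67.9 and 73.0 in RPF, a difference of -2.27 (SE 0.11, adjusted p = 5.76e-09).

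**Figure D4:**
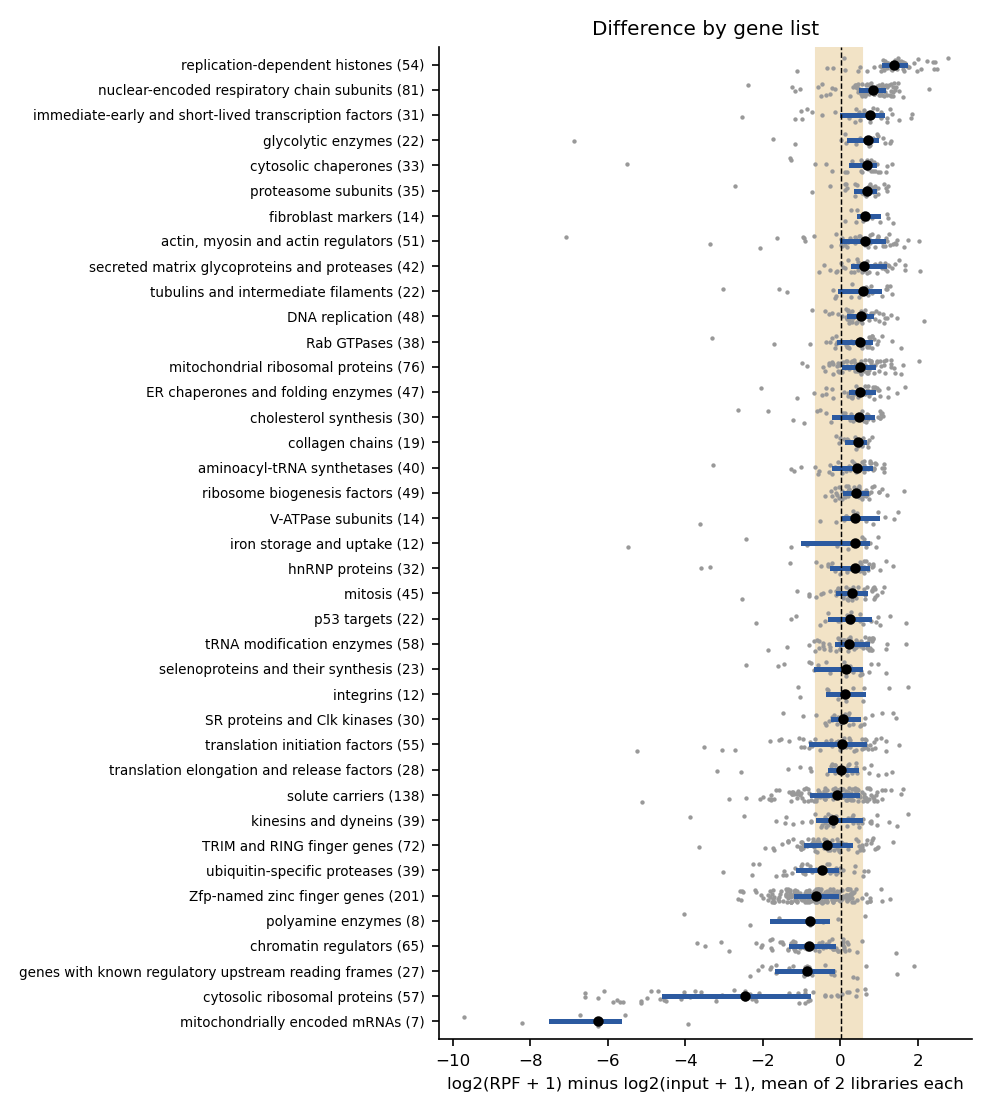
Log2 difference (RPF minus input) of each member (grey points) of the lists with 7 or more measured genes, with the quartiles as a bar, the median as a black dot and the number of members in brackets. The shaded band holds the middle part of all genes, between their quartiles, and the dashed line their median of 0.02.

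Cytosolic ribosomal proteins, the building blocks of the ribosome itself, had a median of -2.46, with 46 of 57 lower and 2 higher. Their share of reads was 2.99% (95% Wilson interval 2.94 to 3.05%) and 3.05% (2.999 to 3.11%) in input and 1.29% (1.27 to 1.32%) and 1.33% (1.30 to 1.36%) in RPF. Many of these genes have near-identical copies elsewhere in the genome, and the difference varied with the share of the coding part that is unique. Members with under 10% unique coding stretches had a median of -4.07 (34 genes), those from 10% to 50% a median of -0.91 (18 genes), and those from 50% to 95% a median of -0.23 (5 genes). No member reached 95%. The Spearman rho of uniqueness with the difference was 0.71 over the 57 genes, as a description.

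Rpl21 had 142 and 118 in input and 0.659 and 0.753, a single read, in each RPF library, and 0% of its coding stretches are unique. The ratio of input to RPF was 186, with a 95% counting interval of 50.7 to 1542. At the other end Rpl8 (88.6% unique) had 979 and 1066 in input and 1342 and 1355 in RPF, a difference of 0.40 (SE 0.06, adjusted p = 1.31e-04). Rps3 and Rpl4, at 77.4% and 56.6% unique, differed by -0.39 (SE 0.07, adjusted p = 6.59e-04) and -0.06 (SE 0.06, adjusted p = 0.452). Mean RPF values of these 3 genes ran from 0.762 to 1.32 times the input, and the calls of Rpl8 and Rps3 were lost with either RPF library left out. The histones differed from this order, for with under 10% unique coding stretches 12 genes had a median of 1.69 and all 12 were higher. How the authors counted reads that fit several genes is not given in the sources used here, and its part in these values was not tested. Without EV RPF 1 and without EV RPF 2, 40 and 42 ribosomal proteins were lower.

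**Figure D5:**
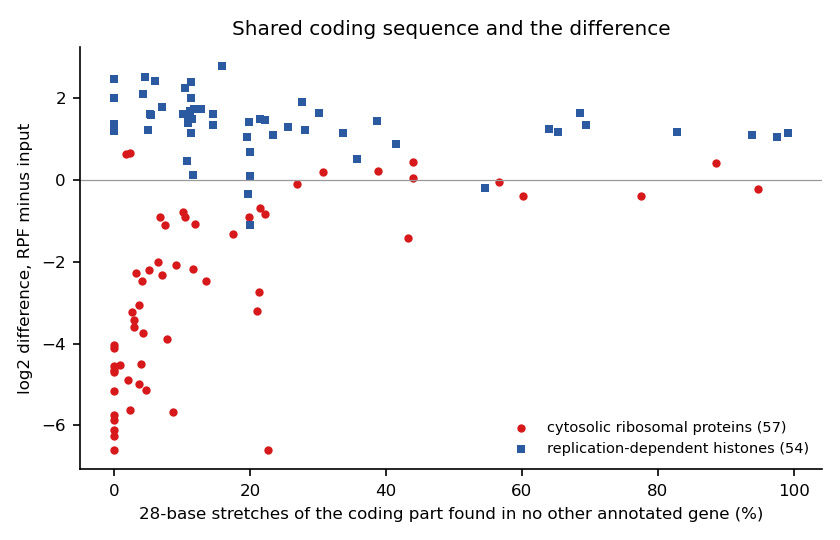
Log2 difference (RPF minus input) against the percentage of 28-base stretches of the coding part that occur in no other annotated gene, for 57 cytosolic ribosomal proteins and 54 histones. The ribosomal proteins with few unique stretches have a median of -4.07 and lie lowest, and 48 of the 54 histones are called higher.

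The same measure set apart several genes used as references. Gapdh, a glycolytic enzyme (chromosome 6, 125161715 to 125166467), had 198 and 203 in input and a single read in each RPF library (0.659 and 0.753), and 0% of its coding stretches are unique. The input to RPF ratio was 285, with a counting interval of 78.1 to 2361. Other glycolytic enzymes did not share this: 13 of 22 were higher and 2 lower, the second being Eno1 (uncertain, 9.47% unique), and the median of 0.71 was 0.35 with the input scaled by the coding share. Aldoa and Tpi1, at 53.2% and 63.0% uniqueness, differed by 0.94 (SE 0.10) and 0.97 (SE 0.10), and Tpi1 lost its call without EV RPF 1. With either RPF library left out 3 glycolytic enzymes were higher. Actg1, a second non-muscle actin with 0% unique coding stretches, had 235 and 222 in input and a single read in each RPF library (input to RPF ratio 325, counting interval 89.2 to 2691). Its value is uncertain, since 42.8% of the stretches of its transcript are unique. Among all 183 coding genes with under 10% unique coding stretches the median was -1.16.

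Factors of translation itself lay on both sides of the median. Of 55 initiation factors 17 (30.9%) were higher and 17 (30.9%) lower. Over all genes the shares were 19% and 19.7%, and in the highest bin of EV input 1 they were 35.9% and 40.3%. The median of the initiation factors was 0.05, and it was -0.10 with the input scaled by the coding share and -0.07 without EV input 1. Without EV RPF 1 and without EV RPF 2, 1 and 1 were higher and 5 and 6 lower. Pabpc1, which binds poly(A) tails, had 1634 and 1654 in input and 195 and 198 in RPF, a difference of -3.06 (SE 0.07, adjusted p = 2.41e-12), and 46.7% of its coding stretches are unique. Eif4a1, the helicase that opens leaders, had 230 and 242 in input and 5.27 in both RPF libraries, with 0.838% unique. Eef1a1, which brings tRNAs to the ribosome, had 2028 and 1922 in input and 982 and 948 in RPF (difference -1.03, SE 0.05), with 10.6% unique, and is uncertain. Eef2, which moves the ribosome along and is 68.4% unique, had 2074 and 2057 against 1881 and 1878. Its difference of -0.14 (SE 0.04, adjusted p = 0.0282) was lost with DESeq2, edgeR, a fit of all 8 libraries, scaling by total reads, the replicate block (adjusted p = 0.0661) and either RPF library left out. Tpt1, a growth-related protein whose mRNA is known to be translated under growth signals, had 311 and 303 in input and 128 and 112 in RPF, with 0% unique coding stretches. Aminoacyl-tRNA synthetases, which load tRNAs, had 17 of 40 higher and 2 lower, and their median of 0.42 turned to -0.15 with the input scaled by the coding share. The synthetase list held 1 higher gene without EV RPF 1 and 0 without EV RPF 2.

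The mRNAs made and translated inside mitochondria were nearly absent from the RPF libraries. All 7 listed were lower, with a median of -6.26, also without each library in turn. They held 2.62% (95% Wilson interval 2.57 to 2.67%) and 2.75% (2.70 to 2.80%) of input reads but 0.025% (0.022 to 0.029%) and 0.019% (0.016 to 0.023%) of RPF reads. mt-Nd2, a complex I subunit (mitochondrial genome, 3914 to 4951), had 3541 and 4007 in input and 3.96 and 3.01 in RPF, from 10 RPF reads in all. The ratio of input to RPF was 1074 (counting interval 584 to 2241). mt-Nd1 had 2176 and 2277 in input and 9.23 and 4.52 in RPF (difference -8.21, SE 0.21), and its coding part is 100% unique. mt-Nd6, encoded on the other strand from the rest, was the least low at -3.94 (SE 0.27).

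A few nuclear genes with unique coding parts had high input values and almost no footprints. Nhs, an actin-regulating protein named for Nance-Horan syndrome (chromosome X, 161833296 to 162159730), had 3920 and 3364 in input and 0.659 and 1.51 in RPF. That is 5695 input reads against 3 RPF reads, a ratio of 3453 with a counting interval of 1181 to 16748. Cbx8, a Polycomb protein (chromosome 11, 119036305 to 119040969), had 8431 and 7155 in input and 4.62 and 8.28 in RPF, a difference of -10.07 (SE 0.18, adjusted p = 2.09e-13). Washc1, a subunit of an actin-nucleating complex on endosomes (chromosome 17, 66111545 to 66120503), had 8802 and 11980 in input and 27.7 and 26.3 in RPF, a difference of -8.52 (SE 0.11). With Nhs, these were among the 4 genes with the most reads, not scaled by length, in both input libraries. Xpnpep2, a membrane aminopeptidase (chromosome X, 48108725 to 48136981), had 1631 and 1496 in input and 1.32 and 2.26 in RPF.

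The coding parts of these 4 genes are 100% unique and no exon base overlaps another annotated gene. Fewer footprints than input also marked Gcnt2, Mtmr1, Usf3, Elovl4, Lrr1 and Sh3rf1, all at least 95% unique, with differences from -6.36 to -5.19. Among 7629 nuclear coding genes with unique coding parts, 33 had a difference under -3.5, and 12 of them were under -5. Where in each transcript the input reads lie cannot be seen in a table of 1 value per gene.

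At the upper end, Timm10, a chaperone of the mitochondrial intermembrane space, had the largest difference, 2.84 (SE 0.50, adjusted p = 6.32e-04). Its input values of 6.42 and 1.27 come from 6 reads and its RPF values of 28.4 and 28.6 from 81 reads, a ratio of RPF to input of 7.42 with a counting interval of 3.27 to 20.8. The 15 highest genes by the naming rule included 7 histones, and Cox8a was the highest other gene with at least 50 reads in each library. Gins1, of the replication helicase, Hmgn5, a nucleosome-binding protein, Pdxk, which makes active vitamin B6, Ces1g, Tcim and Tmem97 followed with differences of 2.05 to 2.17 on input values of 2.57 to 12.7. Their calls were lost with either RPF library left out, as was that of Timm10, and Pdxk is uncertain because it overlaps another gene. Crabp1, which carries retinoic acid, had 64.2 and 75.1 in input and 250 and 257 in RPF, a difference of 1.85 (SE 0.12).

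Some mRNAs with known control elements were examined by name. Fth1 and Ftl1, the chains of ferritin, carry an iron-responsive element in the leader and store iron. Fth1 had 797 and 732 in input and 132 and 152 in RPF, a difference of -2.42 (SE 0.09, adjusted p = 7.11e-10), with 73.9% unique coding stretches. Ftl1 had 175 and 163 in input and 1.98 and 3.76 in RPF, with 4% unique, and is uncertain. Tfrc, the transferrin receptor, carries such elements after its coding part and had 97.6 and 108 in input and 167 and 148 in RPF (difference 0.61, SE 0.13), lost with either RPF library left out. The 23 genes of selenoproteins and their synthesis had a median of 0.14, which turned to -0.00 without EV RPF 1. Of these genes 4 (17.4%) were lower and 2 (8.70%) higher, against 19.7% and 19% over all genes. With either RPF library left out 1 was lower and 0 were higher. Gpx4, which repairs lipid peroxides, was the lowest, at 61.6 and 75.1 in input and 13.8 and 9.79 in RPF, and is uncertain with 40.7% unique coding stretches. Antizyme genes, read through a programmed frameshift, were also low: Oaz1 differed by -4.03 (SE 0.31) with 8.41% unique and Oaz2 by -1.59 (SE 0.37) with 33.5%, and the call of Oaz2 was lost with either RPF library left out.

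The remaining lists are given by their counts, to be read against 19% higher and 19.7% lower over all genes. These shares rose with the input level, to 35.9% and 40.3% in the highest bin of EV input 1. The lists were not matched by level. Cytosolic chaperones had 21 of 33 higher and 4 lower (median 0.69, and 0.28 with the input scaled by the coding share). Chaperones of the endoplasmic reticulum had 26 of 47 higher and 3 lower (median 0.51), with Calr at 1.45 (SE 0.07). Tubulins and intermediate filaments had 12 of 22 higher and 3 lower (median 0.58, and 0.21 under that scaling), and cholesterol synthesis 12 of 30 higher and 5 lower (0.48). Rab GTPases had 11 of 38 higher and 2 lower (0.52, and 1.30 under that scaling). Ribosome biogenesis factors had 21 of 49 higher and 0 lower, and mitosis genes 21 of 45 higher and 7 lower. The medians of both, 0.40 and 0.30, turned to -0.06 and -0.12 under that scaling. V-ATPase subunits had 6 of 14 higher and 1 lower (0.38), and hnRNP proteins 14 of 32 higher and 5 lower (0.37).

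The lists that follow had medians between -0.34 and 0.25. Of 22 p53 targets 4 (18.2%) were higher and 2 lower, and their median of 0.25 was 0.53 with the input scaled by the coding share and -0.02 with a mean of at least 10. Of 58 tRNA modification enzymes 6 (10.3%) were higher and 3 lower (median 0.22). Integrins had 4 of 12 higher and 1 lower, with a median of 0.13 that was -0.02 without EV input 2. SR proteins and Clk kinases, which act in splicing, had 7 of 30 higher and 4 lower (0.07, and near 0 with the input scaled by the coding share). Elongation and release factors had 4 of 28 higher and 6 lower, with a median of 0.01 whose sign changed with edgeR, with limma voom and without EV RPF 2. Solute carriers had 19 of 138 higher and 26 lower, with a median of -0.09 that was 0.06 with the input scaled by the coding share and 0.03 with a mean of at least 10. Kinesins and dyneins had 10 of 39 higher and 7 lower (-0.18, and -0.35 under that scaling). TRIM and RING finger genes had 7 of 72 higher and 21 lower (-0.34, and -0.10 under that scaling). With either RPF library left out each of these chaperone to RING finger lists held at most 5 higher and 4 lower genes. Mettl1 and Wdr4, the genes overexpressed in the libraries not used here, differed by 0.71 (SE 0.28, adjusted p = 0.065) and -0.46 (SE 0.32, adjusted p = 0.285).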

How the data were processed

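The libraries, 2 of input RNA and 2 of ribosome-protected fragments (RPF), came from mouse fibroblasts carrying an empty vector. Per the labels' protocols, lysates were made with cycloheximide in a polysome buffer and libraries with a commercial ribosome profiling kit after removal of ribosomal RNA. Bowtie and the mouse build mm10 are named in the submitters' processing notes. For the counting program, the strand setting and reads that fit several genes, nothing is given in the sources.

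The deposited values are a signal per gene, read counts that the authors divided by library size factors. Dividing by the worth of 1 read gave whole numbers for 100% of values (tolerance 1e-06), so read counts were recovered. The authors' deposited table also holds log2 fold changes and p-values of their own comparison, which were not used. The table lists 9307 genes, 9304 of them with a mean of at least 1. limma 3.58.1 (R 4.3.3) with an intensity trend was fitted to log2(value + 1) of the 4 libraries, two-sided, with Benjamini-Hochberg adjustment over all genes and a threshold of 0.05. The log2(value + 1) scale understates the difference of low genes. edgeR 4.0.16 and DESeq2 1.42.0 on the recovered reads, limma voom, other pseudocounts (0.5 and 4), filters and scalings, a replicate block and leaving out each library were alternatives. Transcript features, uniqueness and sequences came from the longest coding transcript in GENCODE release 21. In 1 alternative the input was multiplied by the coding share of the transcript and rescaled to the same median.

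Genes named by rule had a difference of at least 1, a mean of at least 20 in the higher kind and groups that did not overlap, 15 at each end, besides up to 4 genes a list with the smallest p and a fixed set of 27 genes, of which 26 were listed and Amd1 was not. Other named genes were chosen after their values were seen, and some results are not reported here. Genes under 50% unique over the transcript, or with at least 20% of exon bases shared, are called uncertain. The gene lists and comparisons were chosen with earlier results of these data known. Intervals of shares and ratios (95%) cover counting error only, since reads without molecular identifiers are not independent molecules. Scripts were tested on simulated data. With 66 or 67 changed genes of each size, 9.09% of differences of 0.5 (log2) were called, 31.3% of 1 and 80.6% of 2. Of unchanged genes 0% were called. Far more genes were called in the real data, so these shares need not hold there.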

Additional observations from a re-analysis of the deposited data

How the results depend on the processing

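Against 1768 genes higher and 1833 lower, DESeq2 called 898 higher and 1137 lower, edgeR 1794 and 1962, and limma voom 1706 and 2011. The counts ran from 172 to 2028 higher and from 401 to 1952 lower when 1 library was left out, with both low ends from leaving out an RPF library. With a single RPF library, its spread is assumed to be that of the input libraries. Scaling the input by the coding share without rescaling, an alternative added after seeing the data, gave 5404 higher and 869 lower and moved the median of all genes by 0.909. With rescaling it gave 2466 higher and 2439 lower.

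Of 181 genes named by rule and reported 10 changed sign, all with the input scaled by the coding share: Azin1 (0.033), Trim28 (-0.0834), Cct5 (-0.0236), Mybbp1a (-0.23), Plk2 (-0.0527), Atp5b (-0.0857), Col1a2 (-0.0218), Hsp90ab1 (-0.0179), Fn1 (-0.27) and Col12a1 (-0.12). This scaling assumes that input reads cover the transcript evenly, which was not tested. Outside leaving out libraries, 22 of these genes lost their call under at least 1 alternative.

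With the replicate number as a block 1940 genes were higher and 1931 lower. Deviations of same-numbered libraries correlated with r = 0.0233 across 9304 genes. With few reads per gene, counting error can hide a shared lysate, so this value cannot show whether the pairs share more than a number. The pairing was not used because no shared lysate is stated. Counting error limits genes with few reads: the median gene had 18 to 32 reads in a library.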
